A study of Mus musculus with 6 samples.

Results

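Pericytes and smooth muscle-like cells, called mural-like cells below, were examined in single-cell RNA libraries of retinal Müller glia cultures from mice. These cells were selected on measured expression: a cell was counted as mural-like when it held at least 1 UMI (a counted RNA molecule) of at least 4 of 8 marker genes and of fewer than 2 of 5 genes of Müller-type cells. The markers were Actg2, Des, Cnn1, Ppp1r14a, Pla1a, Rgs4, Lrrc32 and Cyp26b1, and the Müller-type genes were Rlbp1, Npvf, Grem1, Car14 and Lcn2. The rule found 1180 mural-like cells among 23258 kept cells, those that passed a minimum of 500 detected genes and a limit of 10% mitochondrial UMIs. The second condition removed 49 cells that met the first.

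The cultures had been grown from papain-dissociated retinas in Neurobasal medium with serum, N2 supplement and epidermal growth factor. They were transfected by a lipid reagent (Lipofectamine) with RNAs at 500 nM each, and each treatment gave 1 library made with the 10x Genomics V2 system. The first of the 6 groups was a control that received a control mimic together with a control antagomiR. The second received let-7 antagomiR, an RNA that blocks let-7, the third a mimic of miR-25 and the fourth a mimic of miR-124. The fifth, the double combination, joined the let-7 and miR-25 RNAs, and the sixth, the triple combination, held all of them. Values given for 6 libraries below keep this order. Strain, age, sex, time in culture and the mimics' arms were not given in the labels. The libraries labelled miR-124 mimic and triple combination are called by their labels, because the first label was not checked here and genes with miR-25 sites in the second did not stand below control in Müller-type cells.

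Mural cells wrap the small vessels of the retina, smooth muscle cells around arterioles and pericytes around capillaries. Smooth muscle contracts when myosin light chain kinase acts on myosin bound to actin filaments, and serum response factor with its partner myocardin drives many contractile genes through CArG boxes. Pericytes are held to endothelium through platelet-derived growth factor and its receptor Pdgfrb, and they lay down basement membrane with the endothelial cells. The labels describe the cultured cells as Müller glia, which span the retina from its inner to its outer limit.

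The libraries held 11804176 to 23124374 UMIs. The matrix of the double combination was incomplete, with 5094879 of 8637523 entries, and 3014 of its 5141 barcodes were used. Mural-like cells gave 507650 UMIs in the double combination and 1067419 to 2079581 in the others. A level of 50 CPM (UMIs scaled to a library total of 1000000, summed over the mural-like cells of a library) therefore stands for 25.4 UMIs in the double combination and for 104 in the library labelled triple combination. With 1 library per treatment no test of treatments was made, and every interval is a 95% interval for counting error only. A barcode was shared as a mural-like cell by 2 libraries in 1 case, and 31 barcodes of mural-like cells were also those of a kept cell in another library, of 282 shared among 22974 distinct kept barcodes.

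Mural-like cells made up a small share of each library, between 3.59% and 6.64% of kept cells. There were 272 of 4521 cells in the control (6.02%, exact binomial interval 5.34% to 6.75%), 158 of 3128 with let-7 antagomiR (5.05%, 4.31% to 5.88%) and 186 of 5168 with miR-25 mimic (3.60%, 3.11% to 4.14%). The library labelled miR-124 mimic had 239 of 3598 (6.64%, 5.85% to 7.51%), the double combination 99 of 2759 (3.59%, 2.93% to 4.35%) and the library labelled triple combination 226 of 4084 (5.53%, 4.85% to 6.28%). The miR-25 mimic and double combination libraries were lowest, and their intervals did not reach those of the control and the library labelled miR-124 mimic.

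Mural-like cells were deeper than the other kept cells in every library, with median UMIs of 5776, 9014, 5488, 5570, 5011 and 8293 against 4395, 5802, 3802, 3417, 3762 and 4414. A rule that counts detected genes finds more cells where cells are deeper. With each cell thinned to 2000 UMIs, which left out 20 mural-like cells among 1448 shallower ones, the shares were 3.63%, 1.93%, 1.65%, 3.33%, 1.90% and 2.42%. The control and the library labelled miR-124 mimic remained the highest 2, and the let-7 antagomiR library, which has the deepest cells, moved next to miR-25 mimic and the double combination. Median mitochondrial shares were 2.94% to 4.75% in mural-like cells and 4.28% to 5.17% in the others.

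**Figure D1:**
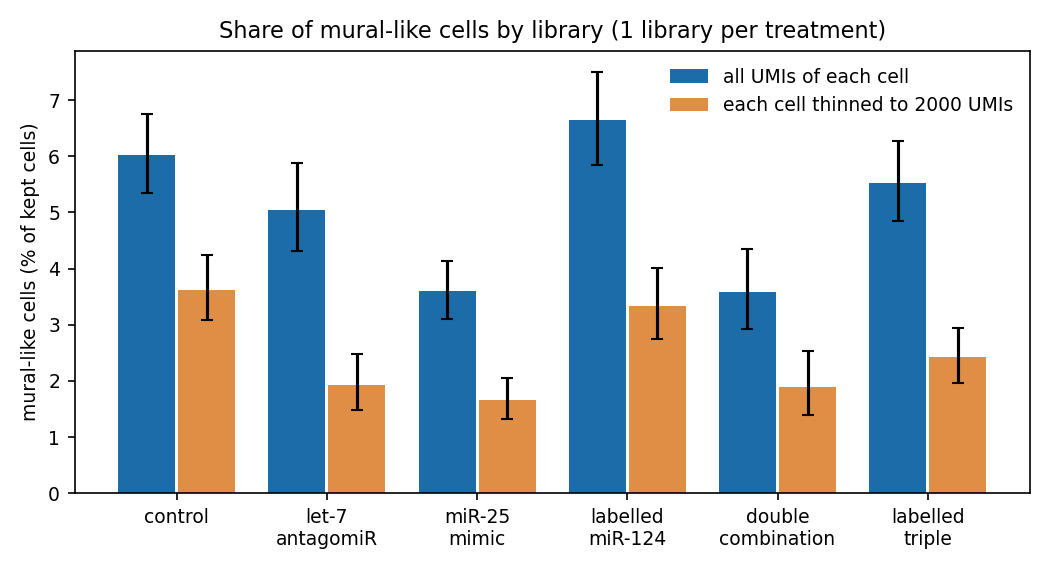
Bars show mural-like cells as a percentage of kept cells in each of the 6 libraries, from all UMIs (blue) and with each cell thinned to 2000 UMIs (orange), and lines are exact 95% binomial intervals for counting error only. The control (6.02%) and the library labelled miR-124 mimic (6.64%) had the highest shares by both counts, and thinning lowered the let-7 antagomiR library from 5.05% to 1.93%.

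The rule took every cell with at least 4 markers that passed the Müller-type condition, so the cells left there can hold 3 at most. Among cells that passed the Müller-type condition, 13502 had none of the 8 markers, 3347 had 1, 638 had 2, 268 had 3, 294 had 4, 345 had 5, 316 had 6, 174 had 7 and 51 had all 8. Cells just inside the limit, with 4 markers, had 8407 CPM of Acta2, 851.8 of Rgs5, 402.1 of Pdgfrb and 312.7 of Col1a2. Cells just outside it, with 3 markers, had 6734, 588.1, 343.7 and 579.6 CPM of those genes. Cells with 3 and with 4 markers were similar in number, and Acta2, Rgs5 and Pdgfrb were higher and Col1a2 lower in the latter.

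The 8 marker genes chose the cells, so their levels are a description. Actg2, the gamma actin of visceral and vascular smooth muscle, was at 2188, 1881, 1616, 2108, 1320 and 2011 CPM in mural-like cells, against a mean of 53.95 in the other kept cells. Cnn1, the calponin that binds actin in differentiated smooth muscle, was at 814.6, 633.5, 549.0, 591.0, 575.2 and 718.4 CPM. Both were lower in the double combination than in the control, and Actg2 was lowest there.

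Des, the muscle intermediate filament protein desmin, was at 183.2, 186.7, 220.2, 196.5, 321.1 and 165.4 CPM, and the double combination was highest. Ppp1r14a encodes an inhibitor of myosin phosphatase, and its levels were 372.5, 242.8, 205.2, 284.4, 171.4 and 263.0 CPM, highest in the control. Rgs4, a brake on G protein signalling, ranged from 288.5 to 386.1 CPM, and Pla1a, a phospholipase, from 158.2 to 212.7 CPM. Lrrc32, which holds latent TGF-beta at the cell surface, ranged from 303.5 to 374.3 CPM. Cyp26b1, the enzyme that degrades retinoic acid, was at 409.1, 260.7, 518.1, 313.0, 384.1 and 363.5 CPM.

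Free RNA can leave UMIs in cells that do not express a gene. Actg2 was detected in 70.4% of mural-like cells, 9.33% of the other kept cells and 4.27% of 4193 Müller-type cells, which are kept cells with at least 2 of the 5 Müller-type genes and fewer than 2 markers. After thinning the values were 58.3%, 5.29% and 1.91%. Des was detected in 38.9% and 0.262% of mural-like and Müller-type cells, Cnn1 in 79.4% and 4.58%, and Ppp1r14a in 62.0% and 0.763%. Mural-like cells had to hold at least 4 markers and Müller-type cells fewer than 2. These rates were therefore set in part by the rules, and the part of free RNA was not tested.

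Their identity was then checked on markers that did not choose the cells. Levels are compared as log2 ratios of CPM + 10, taken within each library and averaged over the 6 libraries (mean ± SD, n = 6). Smooth muscle genes were higher in mural-like cells than in the other kept cells: of 32 listed genes 21 were tested, meaning that they reached 50 CPM in at least 1 library, and 18 of these were at least 2-fold higher in all 6 libraries, none lower. The median log2 ratio of the 21 was 2.28. Among all 3748 genes tested, 6.99% were as much higher and 1.89% as much lower. The rule used these same cells, so the counts describe the cells and test nothing.

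Acta2, smooth muscle alpha actin, was at 11120, 10780, 10030, 11890, 8486 and 13230 CPM. The other kept cells also held much of it, 1341 to 3254 CPM, and the log2 ratio was 2.28 ± 0.62. Tagln, the actin-bundling protein transgelin, was at 4376, 4529, 3845, 4416, 3422 and 4628 CPM. Both were lowest in the double combination.

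Mylk, the myosin light chain kinase named above, was at 1077, 768.1, 801.0, 754.7, 786.0 and 973.8 CPM and had the highest log2 ratio of the list, 4.07 ± 0.23. Myl9, the light chain it acts on, ranged from 1939 to 2363 CPM (2.37 ± 0.25). Tpm2, a tropomyosin along the actin filament, ranged from 3737 to 4177 CPM (2.95 ± 0.36), and Lmod1, which nucleates actin filaments in smooth muscle, from 323.1 to 535.7 CPM (2.94 ± 0.38). The anchoring proteins Actn1 and Vcl ranged from 940.6 to 1170 CPM and from 719.4 to 905.3 CPM (2.47 ± 0.18 and 2.37 ± 0.13). Myl9, Tpm2, Actn1 and Vcl varied little between libraries.

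The most mature contractile markers were low or at 0. Myh11, the smooth muscle myosin heavy chain, was at 65.48, 29.04, 17.80, 32.88, 21.67 and 26.45 CPM and was detected in 13.7% of mural-like cells. Pln and Sncg, found in mature vascular smooth muscle, were at 0 in all 6 libraries. A count of 0, with 3 UMIs as its upper limit, allows a level of up to 0.364 CPM over the 6 libraries together and of up to 5.91 CPM in the double combination alone, for counting error. Myocd, the myocardin gene, was at 5.003 to 13.95 CPM, and Srf, serum response factor, at 43.55 to 68.95 CPM. Of the 15 listed genes of these regulators 8 were tested, and 1, Mef2c, was at least 2-fold higher in all 6 libraries (1.43 ± 0.27).

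Pericyte genes were mixed. Of 18 listed genes 10 were tested, 7 were at least 2-fold higher than in the other kept cells in all 6 libraries and none lower, with a median of 2.56. Rgs5, a G protein regulator typical of pericytes, was at 905.9, 1084, 1495, 955.5, 1097 and 904.5 CPM (3.8 ± 0.45), highest with miR-25 mimic. Pdgfrb was at 420.5, 436.8, 460.9, 358.8, 594.9 and 346.7 CPM (2.58 ± 0.34), and Cspg4, the NG2 proteoglycan, at 153.2, 205.9, 160.2, 160.1, 226.5 and 191.4 CPM (3.43 ± 0.25). Both were highest in the double combination.

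Several genes that mark pericytes in brain vessels were missing. Kcnj8, a potassium channel subunit, was at 0 in all 6 libraries, and its partner Abcc9 was at most 0.937 CPM. Higd1b was at 0 in 5 libraries and 0.481 CPM in the other. Notch3, the Notch receptor of mural cells, was at 30.04, 23.76, 16.86, 17.15, 3.94 and 19.72 CPM and was near its level in other kept cells (0.44 ± 0.50). Vtn was at 19.70 to 75.02 CPM, lowest in the double combination. The transcription factor Tbx18, a mural cell gene, was at 108.2 to 137.9 CPM (2.54 ± 0.19).

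Markers of macrophages, astrocytes and Müller glia were lower in mural-like cells than in the other kept cells, and those of some other types were not. Among 11 endothelial genes 4 were at 0 in all 6 libraries, Cdh5 and Cldn5 among them, and the summed level was 218.7 to 295.3 CPM, against 218.1 to 749.1 in other kept cells. Of the 3 that were tested, Esam, a junction protein, was at least 2-fold higher in all 6 libraries (2.29 ± 0.28), and Emcn (1.5 ± 0.45) and Flt1 (0.96 ± 0.66) were not. Their part in the results was not tested. The 6 Schwann cell genes summed to 137.9 to 268.0 CPM against 164.9 to 236.3. The 10 microglia and macrophage genes summed to 5.91 to 75.09 CPM against 399.9 to 951.3, and the 7 astrocyte genes to 18.48 to 120.2 CPM against 223.7 to 1042. The 15 Müller glia genes summed to 3268 to 4804 CPM against 6460 to 11880, of which Vim, an intermediate filament gene that mural cells also express, gave 2795 to 4108 CPM. That list holds the 5 Müller-type genes that removed cells, so its difference was set in part by the rule. Those 5 summed to 15.84 to 67.45 CPM against 408.7 to 1168. The 18 mesenchymal genes summed to 2274 to 3006 CPM against 1006 to 2368, and of 7 tested 3 were higher in all 6 libraries and 1 lower, with a median of 1.82. Pdgfra, a fibroblast receptor gene of that list, was at most 1.98 CPM.

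**Figure D2:**
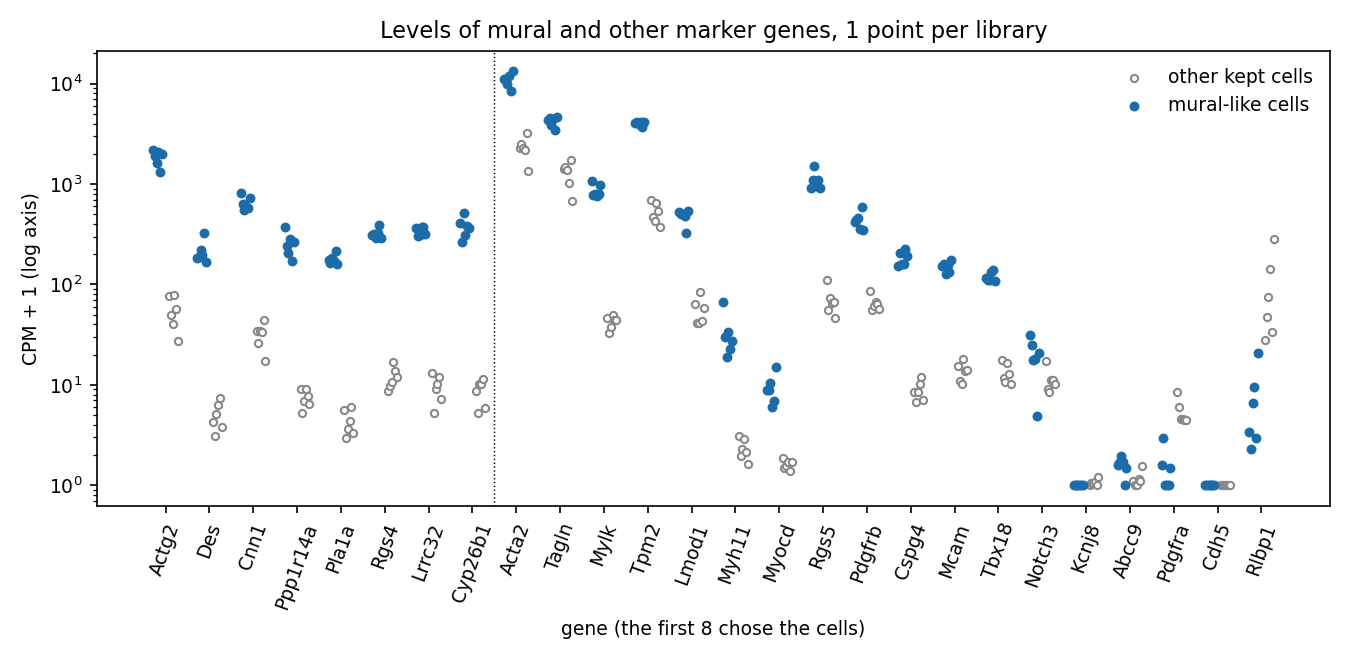
Each point is the level of a gene in 1 of the 6 libraries, in mural-like cells (blue) and in the other kept cells (open grey), as CPM + 1 on a log axis. The 8 genes left of the dotted line chose the cells; to the right, Acta2, Mylk and Rgs5 were higher in mural-like cells in every library, while Kcnj8 and Cdh5 were at 0 in all 6 libraries of mural-like cells.

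The 15 genes that stood highest above the other kept cells included Mylk, Tns1, Itga5, Myom1, Cspg4, Olfml2b, 9930111J21Rik2, Mustn1, Rgs5, P2ry14, Lims2, Thbs1, Mfap5 and Angpt2. Tns1, a tensin of focal adhesions, was at 974.8 to 1124 CPM (4.02 ± 0.25). Thbs1, the matrix protein thrombospondin, was at 4737, 4162, 4700, 6041, 8179 and 3817 CPM (3.15 ± 0.26). Angpt2, a vessel-destabilising ligand, was at 116.2 to 167.7 CPM (3.04 ± 0.25). The 10 lowest were Lyz2, Tyrobp, Lgals3, Gpnmb, C1qa, Crym, Aldh1a1, C1qb, Spp1 and Sostdc1, with means of -3.06 for Sostdc1 to -4.35 for Lyz2; Lyz2, Tyrobp, C1qa and C1qb are macrophage genes.

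Adhesion receptors were high as a group. Of 15 integrin genes 7 were tested and 6 were at least 2-fold higher in all 6 libraries, with a median of 2.30. Itga5, the fibronectin receptor subunit, was at 350.8, 337.9, 293.2, 310.9, 338.8 and 388.5 CPM, with the narrowest spread of ratios among those named (3.79 ± 0.09). Its partner Itgb1 was at 2309, 2329, 1720, 2086, 1962 and 1624 CPM (2.30 ± 0.26). Itgav was the tested member below the 2-fold limit (0.51 ± 0.25).

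Genes of TGF-beta signalling were high. Of 28 listed genes 15 were tested, 9 were at least 2-fold higher in all 6 libraries and 1 was lower, with a median of 1.83. Among the 9 is Lrrc32, a marker that chose the cells. Tgfb2 ranged from 700.1 to 810.4 CPM (1.83 ± 0.20), and Tgfb3 was at 556.9, 353.0, 302.6, 492.4, 342.8 and 502.5 CPM (2.78 ± 0.54). Ltbp2, a latent TGF-beta binding protein of the matrix, ranged from 618.2 to 733.3 CPM (2.84 ± 0.38), and the receptor Tgfbr2 from 120.2 to 183.2 CPM (1.84 ± 0.33). Id1, a target of BMP signals, was the lower member (-1.70 ± 0.38).

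Of 16 listed retinoic acid genes 6 were tested, and the only higher one, Cyp26b1, is a marker that chose the cells. Rdh10 and Aldh1a1, enzymes that make retinoic acid, were lower (-2.06 ± 0.69 and -3.44 ± 0.73). The receptor Rarb, at 65.01 to 125.6 CPM, was near its level in other cells (0.13 ± 0.30).

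Matrix genes were high but not uniformly so. Of 25 fibrillar matrix genes 21 were tested, 11 were at least 2-fold higher in all 6 libraries and 3 lower, with a median of 1.75. Lox, the enzyme that crosslinks collagen and elastin, was at 3162, 3993, 3345, 3566, 5535 and 2850 CPM (2.08 ± 0.60), and Fn1, fibronectin, at 2565, 2667, 2655, 3225, 4426 and 2504 CPM (2.56 ± 0.45). Col3a1 ranged from 1076 to 1459 CPM (2.11 ± 0.44). Col1a2, the second chain of type I collagen, was among the lower genes, at 209.7, 70.61, 58.08, 141.5, 70.92 and 191.4 CPM (-1.88 ± 0.31), with Col11a1 (-2.51 ± 0.69) and Mfap2 (-1.64 ± 0.23).

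Of 20 basement membrane genes 10 were tested, 4 were at least 2-fold higher in all 6 libraries and 1 lower, with a median of 0.93. Col4a1 and Col4a2, the main chains of vessel basement membrane, ranged from 1009 to 1306 CPM and from 1107 to 1416 CPM (2.71 ± 0.31 and 2.71 ± 0.29). Nid1, which links laminin to type IV collagen, had a ratio of 2.35 ± 0.34. Col18a1 was the lower member (-1.36 ± 0.29).

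A second comparison was with mesenchymal cells, 137 kept cells with at least 2 of Tnfrsf18, Matn4 and Esm1, fewer than 2 markers and fewer than 2 Müller-type genes, 12 to 39 in each library. Against them 5.79% of the 3748 tested genes were at least 2-fold higher in mural-like cells in all 6 libraries and 1.6% lower. The smooth muscle list had 17 of 21 higher and none lower, with a median of 2.83, and the pericyte list 6 of 10 higher, with a median of 2.33. Mylk (5.03 ± 0.47) stood far above the mesenchymal cells, while Cald1, the actin-binding caldesmon, was nearer (0.99 ± 0.11) and the matrix protein gene Sparc was level with them (0.03 ± 0.12).

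Promoters of contractile genes were searched for CArG boxes, named by that name alone, on both strands of windows from 250 bases before to 50 after each RefSeq gene start (GRCm38.p6). A box was in 1.63% of 32851 windows and in at least 1 window of 1.81% of 27025 genes. Among genes at 50 CPM or more in mural-like cells with a window it was in 64 of 2903 (2.20%), and in the smooth muscle list in 6 of the 26 with a window (23.1%). None of the 5 marker genes and none of the 12 pericyte genes with a window held one. The 6 were Myl9, Cnn2, Vcl, Acta1, Actc1 and Ldb3, and the last 3 did not reach 50 CPM in any library. The upstream parts of the other 3, which are well expressed here, are shown with the box in capitals, on the plus strand, because the box is the element through which serum response factor acts on this class of gene.
Myl9, chr2:156775258-156775357, box starting 161 bases before the gene start: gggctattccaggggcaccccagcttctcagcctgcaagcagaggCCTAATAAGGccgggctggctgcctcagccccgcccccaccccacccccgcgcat
Cnn2, chr10:79988499-79988598, box starting 56 bases before the gene start: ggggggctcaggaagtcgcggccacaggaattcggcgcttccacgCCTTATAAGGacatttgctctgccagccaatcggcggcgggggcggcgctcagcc
Vcl, chr14:20929148-20929225, box starting 227 bases before the gene start: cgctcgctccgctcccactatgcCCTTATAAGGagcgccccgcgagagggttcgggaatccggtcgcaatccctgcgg
Cnn2 and Vcl carry the same 10 letters, and Myl9 has its own. A match is a run of letters in the window and shows no binding. Cnn2, a calponin that is also made outside muscle, was at 880.3 to 1211 CPM.

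Variation among the mural-like cells was described with 5 sub-clusters, built from the expression of these same cells, so their leading genes are a description. Sub-cluster 1 held 470 cells (39.8%) and was led by dividing-cell genes at low level, such as Ube2c, and by Rgs5 (1560 CPM) and Rgs4 (467.3 CPM). It also had the highest Pdgfrb (527.1 CPM) and Cyp26b1 (508.3 CPM), and its pericyte list summed to 3236 CPM, of which Rgs5 gave 1560. Of the other pericyte genes Tbx18, Foxf2 and Foxc1 also peaked in sub-cluster 1. Cspg4, Mcam and Cd248 peaked in sub-cluster 3 and Vtn in sub-cluster 4. Sub-clusters 3 and 4 were the more contractile. Sub-cluster 3, 237 cells (20.1%), was led by Ankrd1, a mechanically responsive muscle gene, and had the highest Cnn1 (1122 CPM), Mylk (1250 CPM), Csrp1 (1633 CPM) and Postn (864.4 CPM).

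Sub-cluster 4, 255 cells (21.6%), had the highest Acta2 (19330 CPM), Actg2 (3392 CPM), Tagln (6455 CPM), Tpm2 (7137 CPM) and Vtn (125.9 CPM). Its leading genes included Acadl, Atp5b and Uqcrc1, which serve mitochondrial metabolism, and Cct8, a subunit of the chaperonin that folds actin. The early response genes Fos (170.9 CPM) and Egr1 (135.4 CPM) were lowest there, against 330.6 to 610.4 CPM in the other sub-clusters. The smooth muscle list summed to 62200 CPM in sub-cluster 4, 51690 in sub-cluster 3 and 38450 in sub-cluster 1. Contractile actin and the Rgs genes thus peaked in different cells.

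Genes of other cell classes led the other 2 sub-clusters. Sub-cluster 2, 71 cells (6.02%), was led by Igfbp4, Plagl1, Cthrc1 and Cxcl12, had 818.8 CPM of Col1a2, and its microglia and macrophage genes summed to 257.7 CPM, against 26.91 or less in each of the others. Sub-cluster 5, 147 cells (12.5%), was led by Gfap (320.3 CPM), Crym and Mt3, with 245.1 CPM of the glial glutamate transporter Slc1a3 and 1553 CPM of Apoe. Of their cells 23.9% and 32.7% were among the 4% with the highest doublet scores of their library, against at most 0.422% in sub-clusters 1, 3 and 4. Scrublet, a doublet caller, marked 0.111%, 2.17%, 0.193%, 3.06%, 1.38% and 0.147% of kept cells, so it did not work as a caller in 3 libraries and no cell was removed by it. Whether the cells of sub-clusters 2 and 5 are doublets was not tested.

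Sub-clusters 2 and 5 held 24.6%, 8.23%, 14%, 23%, 7.07% and 22.1% of the mural-like cells of the 6 libraries, 218 cells in all. Their share is high in the control, the library labelled miR-124 mimic and the library labelled triple combination. The treatment values that moved with this are therefore given also over the 962 cells of sub-clusters 1, 3 and 4, a setting added after the data had been seen. Sub-cluster 1 held 41.5%, 42.4%, 50%, 38.1%, 38.4% and 30.1% of the mural-like cells, sub-cluster 3 19.1%, 27.9%, 14.5%, 14.2%, 34.3% and 20.4%, and sub-cluster 4 14.7%, 21.5%, 21.5%, 24.7%, 20.2% and 27.4%. Sub-cluster 3 was largest in the double combination and the let-7 antagomiR library.

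**Figure D3:**
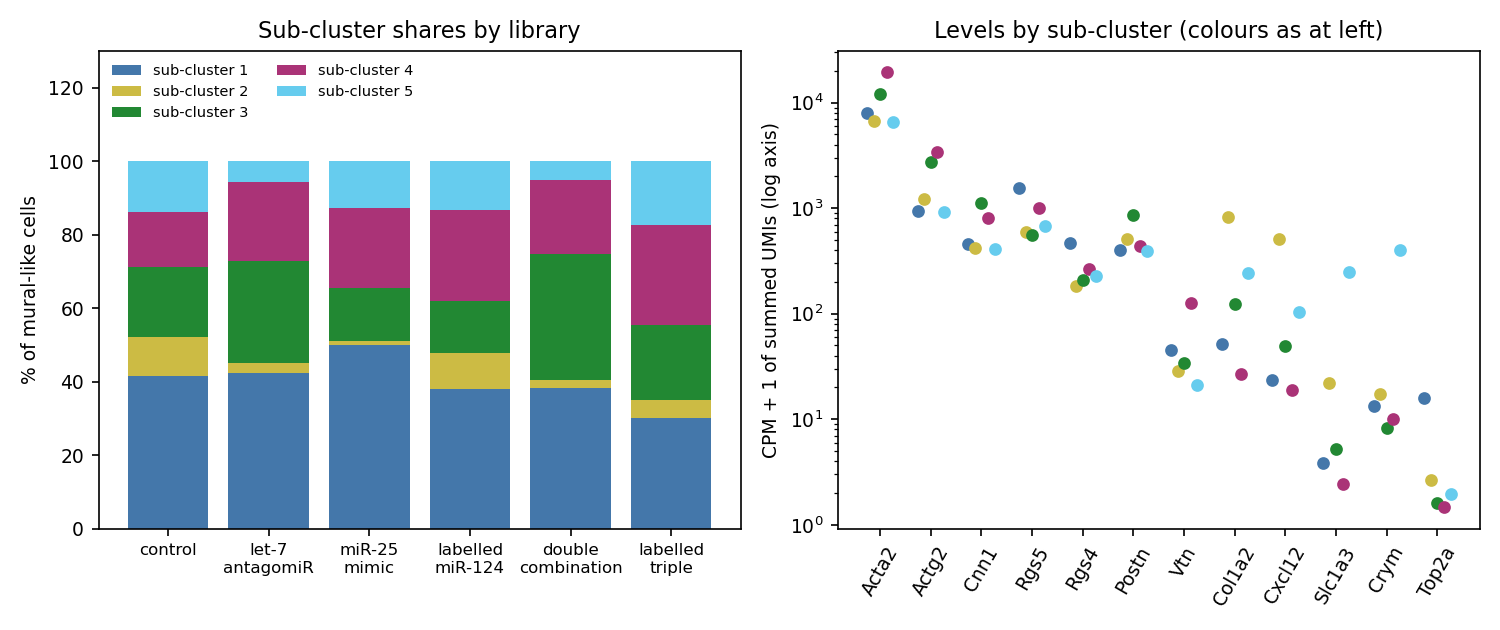
Left, the percentage of mural-like cells in each of 5 sub-clusters by library; right, the level of 12 genes in each sub-cluster, as CPM + 1 of summed UMIs on a log axis, with the same colours. Acta2 and Actg2 peaked in sub-cluster 4 (19330 and 3392 CPM), Rgs5 in sub-cluster 1 (1560 CPM), and Slc1a3 and Crym stood out in sub-cluster 5.

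Treatments were compared by log2 ratios of CPM + 10 between the mural-like cells of 2 libraries, and a gene was counted as higher or lower from 1.5-fold. Each RNA has 2 contrasts that share no library, without and with other RNAs present. The pairs for let-7 antagomiR and miR-25 mimic were formed from the same 4 libraries, so a gene extreme in 1 library can be named for both. Medians over all tested genes were within -0.05 to 0.07 in every contrast. The double combination has the fewest UMIs, so contrasts that hold it have the largest counting error, and they also had the most genes past the limit.

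With let-7 antagomiR against control 75 genes (2% of those tested) were higher and 107 (2.85%) lower, and in the double combination against miR-25 mimic 158 (4.22%) were higher and 155 (4.14%) lower. In both contrasts 9 genes (0.24%) were higher and 24 (0.64%) lower. The 9 higher genes were Postn, Vegfa, Ptgs2, Crct1, Emp1, Ice1, Lamb1, Tmem192 and Dut, and the lower ones included glial genes such as Gfap and Slc1a3.

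Postn, periostin, a matrix protein of remodelling tissue, was at 357.4, 801.8, 510.6, 423.8, 786.0 and 399.1 CPM. Both libraries with let-7 antagomiR that are not labelled triple were the highest. The log2 ratios were 1.14 (counting interval of the ratio without the added 10 CPM, 1.02 to 1.31) and 0.61 (0.43 to 0.81), and 1.13 and 0.59 in sub-clusters 1, 3 and 4. Postn was among the leading genes of sub-cluster 3, which held 27.9% and 34.3% of the mural-like cells in those 2 libraries and 14.2% to 20.4% in the others, and the part of that share was not tested. With at least 5 markers required, the second fell to 0.27. Detection moved likewise, in 70.6%, 91.8%, 67.2%, 72.4%, 82.8% and 79.2% of mural-like cells. After thinning it was 42.7%, 66.2%, 50.8%, 49.1%, 62.1% and 45.5%. The other kept cells had ratios of -0.44 and 0.55.

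Vegfa, the endothelial growth factor, was at 45.05, 89.09, 42.16, 57.18, 84.70 and 48.09 CPM. The 2 libraries highest for Postn were also the highest here, and the ratios were 0.85 (0.57 to 1.41) and 0.86 (0.37 to 1.64). Over sub-clusters 1, 3 and 4 they were 0.68 and 0.65. Detection was 18%, 52.5%, 20.4%, 26.4%, 34.3% and 33.2%, and after thinning 7.87%, 15.9%, 10.4%, 11.5%, 16.8% and 9.82%. In the other kept cells Vegfa was at 2.73 to 5.50 CPM, and its ratios there were -0.01 and -0.18. Lamb1, a laminin chain, was at 73.89, 118.1, 94.62, 66.47, 181.2 and 78.86 CPM, with ratios of 0.61 and 0.87, which became 0.54 and 0.42, under the limit, with at least 5 markers required. Emp1, a membrane protein, had ratios of 0.66 and 0.70, and the second became 0.28 under that rule. In the double combination 1 cell held 23.5% of the Emp1 UMIs. Without that cell the level was 123 CPM in place of 159.6, against 94.62 with miR-25 mimic.

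Crct1 had the largest ratio of those named for let-7 antagomiR, 3.19 in the double combination against miR-25 mimic, and 0.98 against control. Its levels were 10.81, 31.01, 8.43, 113.6, 157.6 and 44.24 CPM. They came from few cells, 14 of 272, 12 of 158, 6 of 186, 36 of 239, 11 of 99 and 22 of 226. With let-7 antagomiR a single cell held 46.8% of its UMIs, and in the double combination another held 41.2%. Without those cells the level was 16.6 CPM with let-7 antagomiR and 93.3 CPM in the double combination. The former is less than 1.5-fold above the control's 10.81 CPM, with 10 CPM added to both. The library labelled miR-124 mimic, which names no let-7 inhibitor, was also high.

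The 8 lowest genes for let-7 antagomiR were Lcn2, Gfap, S1pr3, Mt3, Slc1a3, Crym, Mt2 and Mt1, and all but Lcn2 and Mt1 were among the 15 leading genes of sub-cluster 5. Gfap, an intermediate filament gene of glia, was at 42.05, 3.30, 57.15, 43.60, 17.73 and 71.17 CPM in all mural-like cells and at 1.12 to 4.26 CPM in sub-clusters 1, 3 and 4. Its ratios of -1.97 and -1.28 became 0.06 and 0.36 there. In sub-clusters 1, 3 and 4 alone, 4 genes were lower in both contrasts. The naming rule applied to those cells gave Sept4, a septin, first (-1.22 and -0.74), then Isg15, an interferon-induced gene (-0.75 and -0.69).

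With miR-25 mimic against control 76 genes (2.03%) were higher and 77 (2.05%) lower, and in the double combination against let-7 antagomiR 162 (4.32%) were higher and 146 (3.9%) lower. In both contrasts 4 genes (0.107%) were higher and 5 (0.133%) lower. The 4 higher genes were Ptgs2, Htr1b, Gnb4 and Pdia5. The 5 lower were Fabp5, Hspb1, Mrps24, Ccl7 and, outside the naming rule and named after its values were seen, 0610012G03Rik. The Ccl7 ratio against control, -1.08, became -0.16 in sub-clusters 1, 3 and 4 and -0.57 with at least 5 markers, and 1 cell held 25.7% of its UMIs in the control. With at least 5 markers Gnb4 had 0.42 and 0.53, under the limit, and in sub-clusters 1, 3 and 4 the second ratio of Pdia5 was 0.58.

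Fabp5, a fatty acid carrier, was at 1040, 423.0, 340.1, 1268, 254.1 and 765.5 CPM. Levels were low with either RNA alone and with both, so its ratio was also -1.28 for let-7 antagomiR against control. The miR-25 ratios were -1.58 (-1.78 to -1.45) and -0.71 (-1.02 to -0.46), and -1.80 and -0.68 in sub-clusters 1, 3 and 4. The double combination stood furthest from control (-1.99). The other kept cells had ratios of -0.58 and -0.42.

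Hspb1, a small heat shock protein bound to actin filaments, was at 1018, 1262, 534.9, 672.5, 610.7 and 551.6 CPM. The control and let-7 antagomiR libraries were high and the 4 others low. Its ratios were -0.92 (-1.07 to -0.79) and -1.04 (-1.23 to -0.87), and the library labelled miR-124 mimic, which names no miR-25, was also lower than control (-0.59). Mrps24, a mitochondrial ribosome gene, was likewise highest in those 2 libraries, at 241.5, 232.9, 155.5, 156.5, 141.8 and 137.5 CPM. The other kept cells were also lower in these contrasts, at -0.47 and -0.43 for Hspb1 and -0.39 and -0.38 for Mrps24.

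Ptgs2, the inducible cyclooxygenase, was at 44.45, 82.49, 82.44, 75.76, 157.6 and 34.62 CPM. The double combination was highest and the library labelled triple combination lowest. Its ratio was 0.76 (0.43 to 1.36) for miR-25 mimic, and both RNAs together gave 1.62 (1.35 to 2.30) against control. In the other kept cells the latter was -0.73. Htr1b, a serotonin receptor, was at 37.25, 59.39, 72.14, 42.17, 126.1 and 36.55 CPM, with miR-25 ratios of 0.80 and 0.97, and again the double combination was highest.

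With the library labelled miR-124 mimic against control 51 genes (1.36%) were higher and 53 (1.41%) lower, and in the library labelled triple combination against the double combination 201 (5.36%) were higher and 209 (5.58%) lower. In both contrasts 8 genes (0.213%) were higher and 4 (0.107%) lower. The 8 higher genes were Eln, Plpp1, Mustn1, Fdps, Phgdh, Igsf8, Pxdc1 and Clu, and the 4 lower Iscu, Ube3c, Fdx1 and, outside the naming rule and named after its values were seen, mt-Co1. Clu, at 2 UMIs in the double combination, had 2.17 in the second contrast and 0.49 in sub-clusters 1, 3 and 4. With at least 5 markers the first ratio was 0.51 for Phgdh and 0.53 for Pxdc1, and the second ratio of Pxdc1 was 0.55 in sub-clusters 1, 3 and 4. The second contrast compares libraries in which miR-25 and let-7 site genes also differed, by 0.186 and -0.145 in Müller-type cells and by 0.0661 and -0.00485 in mural-like cells as adjusted log2 differences between genes with and without a site. Their part in it cannot be told apart from that of miR-124.

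Eln, elastin, the elastic fibre protein of vessel walls, was at 131.6, 355.7, 240.8, 270.2, 230.5 and 479.9 CPM. The control was lowest and the library labelled triple combination highest. The ratios were 0.98 (0.79 to 1.29) and 1.03 (0.78 to 1.35), and 0.97 and 1.13 in sub-clusters 1, 3 and 4. Its ratio to control was also 1.37 with let-7 antagomiR and 0.82 with miR-25 mimic, and the other kept cells had 0.87 in the library labelled miR-124 mimic. Detection was 28.7%, 51.9%, 38.7%, 41.0%, 31.3% and 60.2% of mural-like cells, and after thinning 15.7%, 28.0%, 23.5%, 28.6%, 21.1% and 39.7%.

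Plpp1, a lipid phosphatase, was at 241.5, 136.6, 155.5, 409.5, 169.4 and 302.0 CPM, with ratios of 0.74 (0.58 to 0.95) and 0.80 (0.51 to 1.18). Mustn1, a small muscle gene, was at 143.0, 167.6, 180.8, 220.8, 157.6 and 261.6 CPM, with ratios of 0.59 and 0.70. The first was under the 1.5-fold limit under each of 4 alternatives, at 0.50 to 0.56, and the other kept cells held little of it. Fdps, an enzyme of cholesterol synthesis, was at 39.65, 42.89, 34.66, 65.04, 19.70 and 119.3 CPM, and its ratio in the second contrast was 2.12 (1.70 to 3.68) on 10 UMIs in the double combination. The first, 0.60, was under the limit under each of 3 alternatives, at 0.55 to 0.57.

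The 8 lowest genes for miR-124 mimic by the naming rule were Iscu, Ube3c, Fdx1, Steap2, Ptk7, Desi1, Extl3 and Rala, of which Iscu, Ube3c and Fdx1 were past the limit in both contrasts. With at least 5 markers the first ratio was -0.57 for Iscu and -0.53 for Ube3c, under the limit, and without the 4% highest doublet scores it was -0.58 for Fdx1, also under it. Iscu, a scaffold for iron-sulphur clusters, was at 87.71, 111.5, 48.72, 52.17, 76.82 and 40.39 CPM, with ratios of -0.65 and -0.78. It was also low with miR-25 mimic. Steap2, a metalloreductase, had ratios of -0.58 and -0.93, and Ptk7, a Wnt co-receptor, -0.89 and -0.55. The other kept cells were also lower for Iscu (-0.56 and -0.28) and for Steap2 in the first contrast (-0.59).

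**Figure D4:**
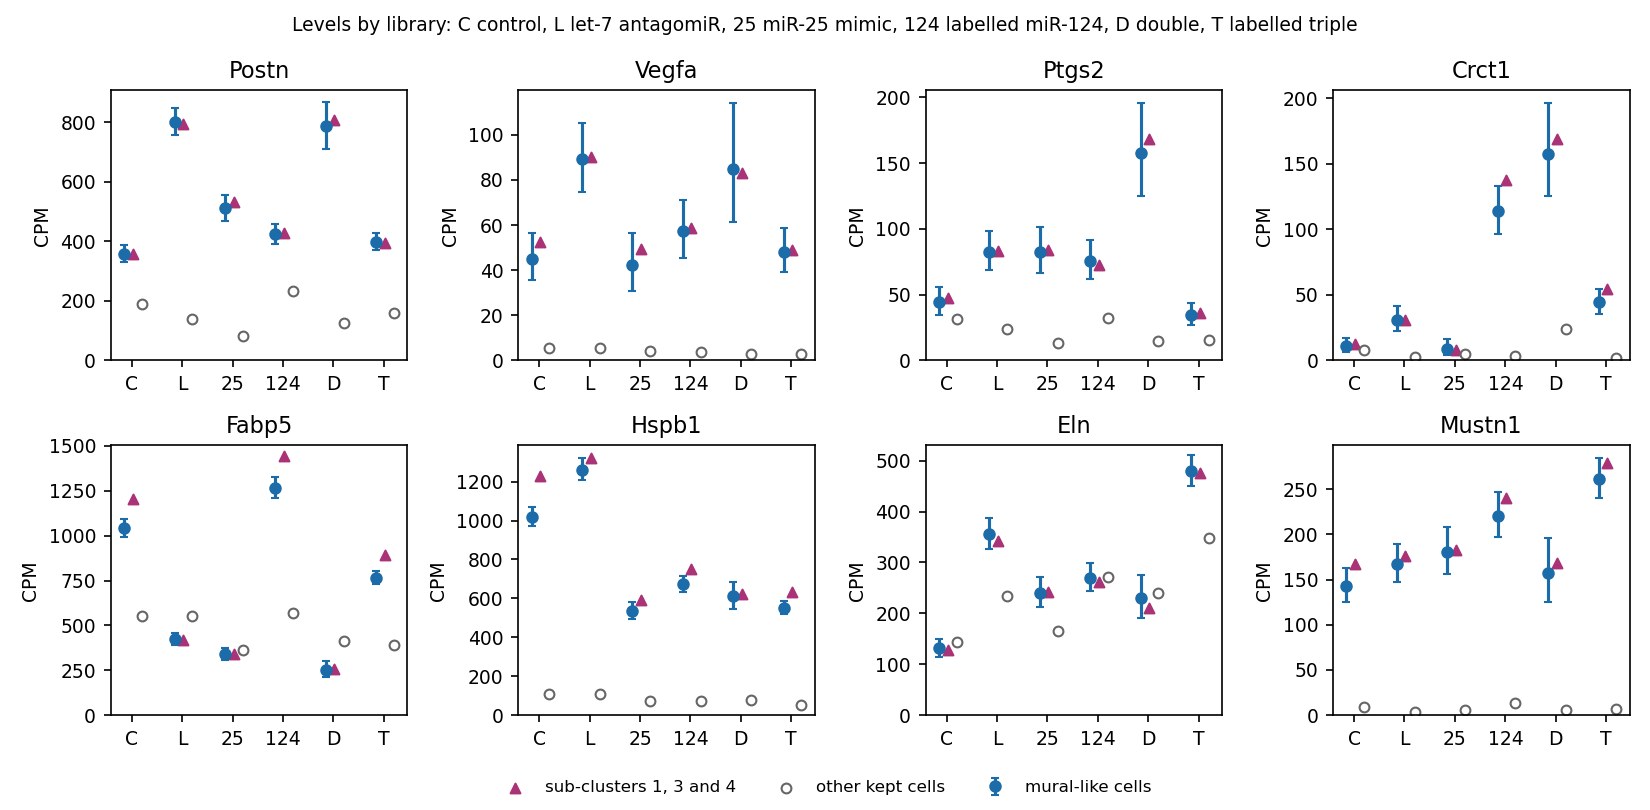
Levels of 8 genes by library in CPM, in mural-like cells with exact 95% Poisson intervals for counting error only (blue), in sub-clusters 1, 3 and 4 (triangles) and in the other kept cells (open circles). Postn was at 801.8 CPM with let-7 antagomiR and 786.0 in the double combination against 357.4 in the control, Fabp5 was lowest in the double combination (254.1 CPM), and Eln was highest in the library labelled triple combination (479.9 CPM).

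The contractile genes were compared as a list in each contrast. Against control, 213 genes (5.68%) were higher and 191 (5.1%) lower in the double combination. Of the 21 tested smooth muscle genes 4 were lower there and none higher, with a median of -0.14 against 0.07 for all genes; in sub-clusters 1, 3 and 4, 6 were lower and the median was -0.28. Among the 4 were Myh11 (-1.25), Lmod1 (-0.68) and Itga8 (-0.88). Among the marker genes Actg2 (-0.73, and -0.54 with at least 5 markers) and Ppp1r14a (-1.08) were lower and Des (0.78) was higher. The marker genes chose the cells in each library, so their ratios are a description only.

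In the library labelled triple combination against the double combination, 5 of the 21 were higher, Acta2, Lmod1, Itga8 and Mustn1 among them, and none lower, with a median of 0.16 against -0.05 for all genes. Among all genes 5.36% were higher and 5.58% lower in that contrast. Acta2 had a ratio of 0.64, which became 0.48 with at least 5 markers. Against control 68 genes (1.81%) were higher and 44 (1.17%) lower in the library labelled triple combination, and the smooth muscle median was 0.00331. The contrasts of this list that hold the double combination share that library and are not separate evidence.

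Myh11 was lower than the control in all 5 other libraries, with ratios of -0.95, -1.44, -0.82, -1.25 and -1.05 in library order. All 5 share the control library, where its level rests on 65.48 CPM. Of the 10 tested pericyte genes 1 was higher and 1 lower in the double combination against control, Cd248 (0.75), a receptor of perivascular cells, and Vtn (-0.91). Among all genes 5.68% were higher and 5.1% lower there. Rgs5 was higher with miR-25 mimic (0.72, and 0.51 with at least 5 markers).

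Some fibrillar matrix genes were higher in the double combination, but most were not. Of 21 tested, 7 were higher and 2 lower against control, with a median of 0.28 against 0.07 for all genes, and in sub-clusters 1, 3 and 4, 8 were higher and 2 lower, with a median of 0.11 against 0.07. Lox (0.81), Fn1 (0.79), Postn (1.11), Col5a1 (0.68), Col5a2 (0.70), Eln (0.76) and Bgn (0.67) were the 7. Col1a2 (-1.44) and Col11a1 (-1.47), both highest in sub-cluster 2, were lower, at -0.77 and -1.23 in sub-clusters 1, 3 and 4. Against miR-25 mimic 7 were higher and none lower. Of all genes 5.68% were higher and 5.1% lower against control, and 4.22% and 4.14% against miR-25 mimic.

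The combinations against control were led by some of the same genes. The 6 highest in the double combination were Crct1, Ptgs2, Htr1b, Gnb4, Nrep and Dut. Nrep, a gene of regenerating tissue, was at 51.66, 117.5, 124.6, 60.75, 157.6 and 53.38 CPM (ratio 1.44), and the other kept cells had a like ratio (1.31). Dut, which keeps uracil out of DNA, was at 67.28, 143.9, 116.2, 87.19, 179.3 and 89.44 CPM (ratio 1.29), against -0.10 in the other kept cells. Nrep and Dut were both higher than in the control with either RNA alone and with both.

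In the library labelled triple combination the 6 highest were Crct1, Eln, Clu, Fdps, Uchl1 and Hpcal1. Eln had a ratio of 1.79 (1.66 to 2.09) there. Uchl1, a ubiquitin hydrolase, was at 29.44, 56.09, 70.26, 54.32, 76.82 and 83.67 CPM (ratio 1.25), lowest in the control. Among the 6 lowest, Scand1, at 21.03, 64.67, 14.05, 15.01, 3.94 and 3.37 CPM, and Wdr89, at 70.29, 75.89, 56.21, 80.76, 74.85 and 27.41 CPM, had ratios of -1.22 and -1.10, and the other kept cells had -1.14 and -1.24. The remaining 4 were Lcn2, S1pr3, Cxcl12 and Myh11, of which Lcn2, S1pr3 and Cxcl12 had ratios of -0.17, -0.18 and -0.17 in sub-clusters 1, 3 and 4.

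Genes with sites for the miRNAs were examined as a check on the added RNAs. A miRNA binds messages by its seed, bases 2 to 8 from the 5′ end, and a message with a matching site in its 3′ UTR falls when the miRNA is added. The mature mouse sequences are from RefSeq (GRCm38.p6), with the seed in capitals, and are shown because the seed defines the genes counted next.
mmu-let-7a-5p, from 1 of its loci, chr13:48538239-48538260, minus strand: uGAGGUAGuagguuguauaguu
mmu-miR-25-3p, chr5:138165332-138165353, minus strand, within the Mcm7 gene: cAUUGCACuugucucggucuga
The seed of let-7a is shared by 10 mature miRNAs of the let-7 family in that table, so their sites cannot be told apart. The 3p arm of miR-25 was assumed, and miR-124 sites were not analysed here.

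Over the same genes, 246 with and 2779 without a let-7 site, and 255 with and 2770 without a miR-25 site, differences in log2 ratio were taken after removing trends on UTR length, mean level and UTR base composition. In Müller-type cells let-7 site genes were higher by 0.0737 with let-7 antagomiR against control and by 0.0904 in the double combination against miR-25 mimic. In mural-like cells the same differences were 0.0129 and 0.00826. For miR-25 sites, miR-25 mimic against control gave -0.160 in Müller-type and -0.0459 in mural-like cells, and the double combination against let-7 antagomiR -0.160 and -0.0322. Thus the site genes stood nearer to 0 in mural-like cells in all 4 contrasts, and the difference between the cell types was not tested.

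In mural-like cells genes with miR-25 sites had -0.0475 with let-7 antagomiR against control, where no miR-25 was added, which is as large as the value with miR-25 mimic. Over all 3702 tested genes with an annotated UTR, miR-25 sites had -0.0340 with miR-25 mimic, where sites of 6 miRNAs that were not added ran from -0.00805 to 0.0842, and let-7 sites had 0.0125 with let-7 antagomiR, where they ran from -0.0256 to 0.0585. Both RNAs together gave -0.0509 for miR-25 sites against control over these genes, and -0.0797 over the genes shared with Müller-type cells. In the library labelled triple combination miR-25 sites were at 0.00972 in Müller-type and -0.0135 in mural-like cells, and let-7 sites at -0.0616 and 0.00829.

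**Figure D5:**
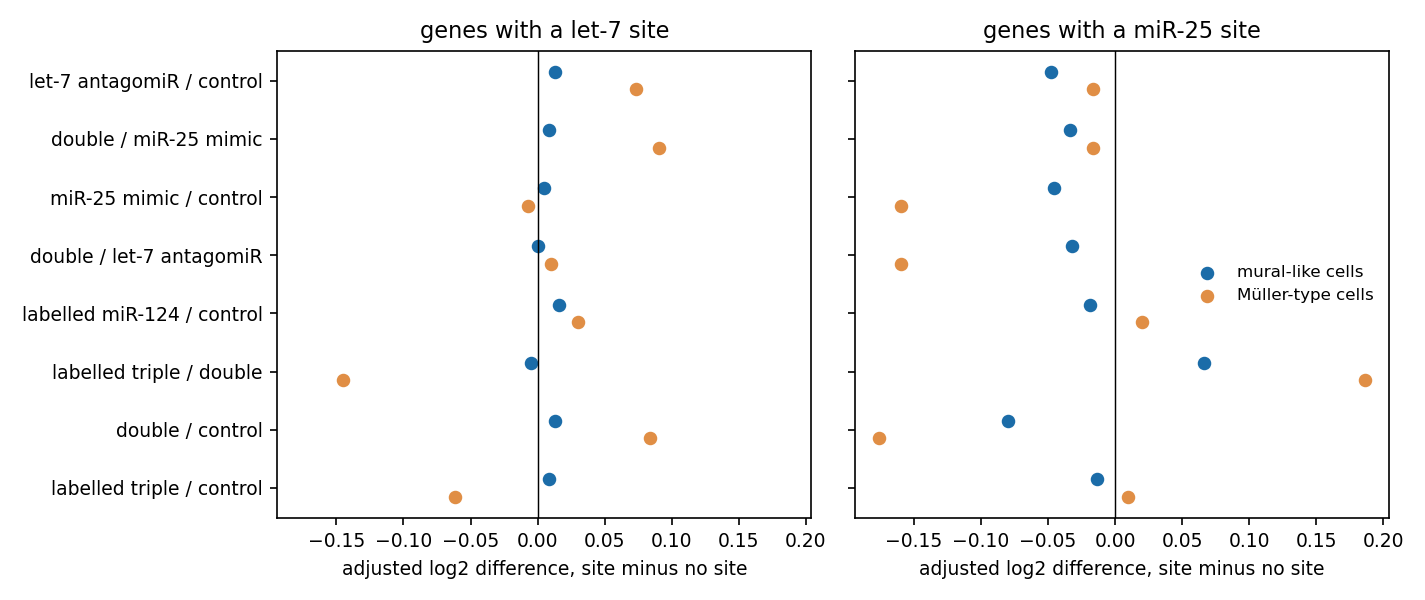
Each point is the adjusted difference in log2 ratio between genes with and without a let-7 site (left) or a miR-25 site (right) in 1 contrast, in mural-like (blue) and Müller-type cells (orange) over the same genes. With miR-25 mimic against control the miR-25 points were -0.0459 in mural-like and -0.160 in Müller-type cells, and with let-7 antagomiR the let-7 points were 0.0129 and 0.0737.

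Genes listed as targets were also counted. Of 32 let-7 targets 11 were tested. With let-7 antagomiR against control none was higher, and Ccnd1 (-1.38), a cyclin, and Col1a2 (-1.45) were lower. Among all genes 2% were higher and 2.85% lower there. In the double combination against miR-25 mimic Col5a2 (0.68) and Thbs1 (0.80) were higher and none was lower. The shares of all genes in that contrast were 4.22% and 4.14%. Hmga2, a long-known let-7 target, was at 2.81 to 7.81 CPM, too low to be read. Thbs1 had -0.19 in the first of these contrasts. Of 30 miR-25 targets 14 were tested and none was past the limit with miR-25 mimic against control, where 2.03% of all genes were higher and 2.05% lower, with a median of -0.17 against 0.04 for all genes. In sub-clusters 1, 3 and 4 Nptn (-0.59) and Lats2 (-0.59) were lower there. Nptn (-0.62) was also lower in the double combination against let-7 antagomiR, where 3.9% of all genes were. Dkk3, a Wnt inhibitor on that list, was at 217.5, 195.3, 227.7, 192.3, 157.6 and 212.5 CPM. Of 41 miR-124 targets 28 were tested and none was past the limit in the library labelled miR-124 mimic against control, where 1.36% of all genes were higher and 1.41% lower. In the library labelled triple combination against the double combination Anxa6 (0.71) was higher and Cd164 (-0.73) and Mapk14 (-0.62) lower, and in sub-clusters 1, 3 and 4, 2 were higher and 3 lower. Of all genes in that contrast 5.36% were higher and 5.58% lower. Ptbp1, the best known target of miR-124, was at 78.10, 76.55, 64.64, 60.03, 84.70 and 86.08 CPM. Its ratio was -0.33 in the library labelled miR-124 mimic against control.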

How the data were processed

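Single cells from 6 libraries were counted by the submitters with Cell Ranger 2 on mm10, per the submitters' processing notes, which also name Seurat 2. The authors deposited raw UMI counts of 27998 genes per barcode, and reads as such were not used. The matrix of the double combination ends early, so its last barcodes were not used. Cells were filtered on 500 genes and 10% mitochondrial UMIs with scanpy 1.11.5 (Python 3.11.15, numpy 2.4.6, scipy 1.17.1, pandas 2.3.3), and counts of the mural-like cells were summed by library and scaled to CPM. No cell was removed as a doublet. Sub-clusters came from Leiden clustering (igraph 0.11.9, resolution 0.5) on 2000 variable genes and 20 principal components. With 1 library per treatment no replicate exists, and a model that adds up the effects of the 3 RNAs over the 6 libraries was not fitted. Counting intervals were exact Poisson, conditional binomial and Clopper-Pearson, and the scripts were tested on simulated data.

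The members and the gene lists were chosen with earlier results of these data known. Genes named were the 8 markers, the 15 highest and 10 lowest over other kept cells by their worst library, the 8 highest and 8 lowest for each RNA by the smaller of its 2 ratios, the 6 highest and 6 lowest for each combination, from every list its 2 highest and 2 lowest, and also Acta2, Tagln, Myh11, Rgs5, Pdgfrb, Cspg4, Kcnj8, Abcc9, Notch3, Myocd, Ptbp1, Hmga2, Dkk3, Itgb1 and Klf4. Alternatives were other marker minimums, no Müller-type condition, thinning, 5% mitochondrial UMIs, a pseudocount of 1 CPM, no level filter, 100 CPM, median-of-ratios scaling and longer miRNA sites. Added after the data had been seen were the removal of the 4% highest doublet scores and sub-clusters 1, 3 and 4 alone. Some genes that the naming rule selects are not reported here.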

Additional observations from a re-analysis of the deposited data

Results flagged for a closer look

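Each result here is a gene whose ratio between treatments went past 1.5-fold one way in mural-like cells and the other way in the other kept cells of the same libraries. In no case was the difference between the cell groups tested, since each treatment has 1 library.

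In the library labelled triple combination against the double combination Acta2 had 0.640 in mural-like cells and -1.27 in the other kept cells, and Actg2 0.604 and -0.857. Actg2 is a marker that chose the cells, so its values are a description. With at least 5 markers the mural-like values were 0.481 and 0.466, under the limit. Over sub-clusters 1, 3 and 4 the mural-like values were 0.867 and 0.853. Ptgs2 had 0.764 with miR-25 mimic against control (other cells -0.843) and 1.62 in the double combination against control (other cells -0.730), and 0.709 and 1.64 in sub-clusters 1, 3 and 4. Emp1 had 0.935 in the double combination against control (other cells -0.718), and 1.12 in sub-clusters 1, 3 and 4. A single cell held 23.5% of its UMIs in the double combination, and without that cell its level there was 123 CPM in place of 159.6. The control was at 78.70 CPM. Crct1 had 1.38 in the library labelled triple combination against control (other cells -0.618), with 30.4% of its UMIs in 1 cell. Ccl7, a chemokine, had 0.776 in that library against the double combination (other cells -0.824), with 47.2% of its UMIs in 1 cell. Without the cell that held the most in each library, Ccl7 was at 32.5 CPM there and 19.9 CPM in the double combination. With 10 CPM added to both, these levels are less than 1.5-fold apart.

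The remaining values rested on sub-clusters 2 and 5. Aldh1a1 had -0.653 in the double combination against control (other cells 1.06), but 0.994 in sub-clusters 1, 3 and 4. Gfap had 1.06 in the double combination against let-7 antagomiR (other cells -0.593), and 0.230 in sub-clusters 1, 3 and 4.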

How the results depend on the processing

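No paired analysis was possible because each treatment has 1 library, so no group has a second replicate number to share. Shares of mural-like cells moved with the rule; in library order they were 4.73%, 4.12%, 2.38%, 4.78%, 2.25% and 4.55% with at least 5 markers, 3.63%, 1.93%, 1.65%, 3.33%, 1.90% and 2.42% after thinning, and 7.32%, 8.18%, 6.11%, 10.1%, 4.72% and 10.3% with at most 5% mitochondrial UMIs. With at least 3 markers the shares that moved were 7.5% (control), 4.59% (miR-25 mimic), 8.39% (labelled miR-124 mimic) and 4.93% (double combination). Sub-clusters 1, 3 and 4 held 4.53% (control), 3.10% (miR-25 mimic), 5.11% (labelled miR-124 mimic) and 4.31% (labelled triple combination) of kept cells.

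Counts of genes past 1.5-fold followed the level filter. With no filter, higher and lower counts were 206 and 368 for let-7 antagomiR against control, 618 and 701 for the same antagomiR added to miR-25 mimic, 237 and 276 for miR-25 mimic over control, 598 and 565 for the same mimic added to let-7 antagomiR, 138 and 189 for the library labelled miR-124 mimic against control, 772 and 567 for the library labelled triple combination against the double combination, 594 and 679 for the double combination against control, and 207 and 144 for the library labelled triple combination against control. In both contrasts they were 19 and 58 for let-7 antagomiR, 12 and 20 for miR-25 mimic, and 18 and 14 for miR-124 mimic. At 100 CPM the same 8 contrasts gave 37 and 49, 72 and 50, 28 and 44, 59 and 59, 22 and 23, 94 and 97, 107 and 98, and 33 and 19, with 8 lower in both for let-7 antagomiR, 2 higher in both for miR-25 mimic, and 4 and 2 for miR-124 mimic. With a pseudocount of 1 CPM the higher counts were 121 for let-7 antagomiR, 120 for miR-25 mimic and 77 for the library labelled miR-124 mimic, each against control, and 249 for miR-25 mimic added to let-7 antagomiR; 79 were lower in the library labelled triple combination against control. In both contrasts that setting gave 16 higher for let-7 antagomiR, 12 and 9 for miR-25 mimic and 14 and 9 for miR-124 mimic. With at least 5 markers, 225 were lower in the double combination against let-7 antagomiR and 2 in both for miR-124 mimic. Without the highest doublet scores 11 were lower in both for let-7 antagomiR, and in sub-clusters 1, 3 and 4 alone 4 were, with 8 higher in both for miR-25 mimic and 5 and 7 for miR-124 mimic. The cause was not tested.

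At 100 CPM the let-7 site value against control was -0.0487 with miR-25 mimic and -0.00715 in the library labelled miR-124 mimic. Signs turned for Lcn2 in the double combination against control, 0.124 without the highest doublet scores and 0.219 in sub-clusters 1, 3 and 4. There the ratios for let-7 antagomiR against control became 0.0636 for Gfap, 0.266 for S1pr3 and 0.0562 for Mt3, those for the double combination against miR-25 mimic 0.360 for Gfap, 0.149 for Mt3 and 0.221 for Slc1a3, and Mt3 became 0.164 in the double combination against control. Of single-gene ratios 239 were within their error there and 56 moved.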

Other observations

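Few mural-like cells showed a dividing-cell pattern. At least 3 of the 6 mitotic genes Mki67, Top2a, Cdk1, Ube2c, Cenpf and Birc5 were detected in 6 of 1180 mural-like cells (0.508%, exact binomial interval 0.187% to 1.10%) and in 171 of 22078 other kept cells (0.775%, 0.663% to 0.899%). The 6 cells were 2 with let-7 antagomiR, 1 in the library labelled miR-124 mimic and 3 in the library labelled triple combination, and the summed level of the 6 genes was 4.21, 48.8, 1.87, 10.7, 3.94 and 63.5 CPM in library order. The 2 libraries with the most such RNA are also those whose mural-like cells are deepest. Mcm6, a helicase subunit of DNA replication, was at 27.03, 62.69, 56.21, 35.02, 74.85 and 38.47 CPM, lowest in the control.

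Of 13 listed genes of insulin-like growth factor signalling 6 were tested. Against control 1 was higher and 2 were lower in the double combination, 2 were lower with let-7 antagomiR and 1 with miR-25 mimic. The shares for all genes, higher first, were 5.68% and 5.1%, 2% and 2.85%, and 2.03% and 2.05%. None was past the limit in the library labelled miR-124 mimic or in that labelled triple combination. Over sub-clusters 1, 3 and 4 the double combination had 3 higher and 1 lower, with a median of 0.30 in place of -0.33. Let-7 antagomiR had 2 higher and 1 lower there, with a median of 0.26 in place of -0.23. There miR-25 mimic had 1 each way, the library labelled triple combination 1 higher, and the library labelled miR-124 mimic none. Igf1, the ligand, was at 353.2, 473.8, 502.1, 433.1, 689.5 and 460.7 CPM, highest in the double combination (ratio to control 0.95). Igfbp2, a binding protein, was at 525.6, 196.6, 249.2, 428.1, 311.2 and 445.3 CPM, highest in the control. Igfbp5 had a ratio of -0.92 for let-7 antagomiR against control in all mural-like cells and of 1.81 in sub-clusters 1, 3 and 4, where the control was at 32.72 CPM and the let-7 antagomiR library at 139.7. Adm, the vessel-relaxing peptide adrenomedullin, was at 13.91, 15.12, 10.07, 14.72, 4.26 and 56.06 CPM in sub-clusters 1, 3 and 4, and over all mural-like cells it was detected in 60 of 226 cells in the library labelled triple combination and in 3 to 18 cells of each of the others. Adm was named after its values were seen.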
